A study of Mus musculus with 18 samples.

Results

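The genes described here are 39 genes of the peroxisome, chosen by name from the 20512 genes in the table of mouse liver expression: peroxins, transporters of the peroxisomal membrane, oxidases and other enzymes of the matrix. The rule names genes and uses no measured value, although the genes were chosen with earlier results of these data known. Of the 39, 8 act in matrix import, 3 in membrane assembly and 1 in division. Another 7 encode transporters and membrane proteins, 7 oxidases, 2 peroxide-removing enzymes and 11 lipid and other matrix enzymes. A single member, *Dao*, the D-amino acid oxidase of kidney and brain, was listed at 0 in every library, and the other 38 were measured and tested.

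Peroxisomes oxidise very long-chain and branched fatty acids, D-amino acids, glycolate, urate and other substrates with oxidases that pass electrons directly to oxygen, and catalase removes the hydrogen peroxide this makes. Their enzymes are translated in the cytosol and carried in, folded, by the receptors PEX5 and PEX7, while other peroxins insert membrane proteins and divide the organelle. In rodent liver, peroxisomes and many of their enzymes multiply when the fatty acid receptor PPARα is activated.

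Liver RNA was sequenced from 18 mice in 3 groups of 6. All were male C57BL/6 mice, 6 to 7 weeks old when the diets began and kept on them for 4 months. During the last 2 months all were given drinking water with 0.2% DMSO, and all were fasted overnight before the livers were taken. HFD+AC261066 mice ate a high-fat diet (HFD, 60% of kcal from fat) and drank the RARβ2 agonist AC261066, a synthetic retinoid, at 3 mg per 100 ml of that water during the last 2 months. HFD mice ate the same diet, and chow mice a diet with 13% of kcal from fat, without the compound. No chow mice received AC261066, so its effect without the HFD was not measured, and whole livers were used, in which fewer cells of a type and less RNA per cell cannot be told apart. The experiment was run in 2 rounds, and replicates 1 to 3 and 4 to 6 of each group form 2 sets of livers whose means the authors had made equal for every gene.

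Values are the authors' log2 expression values, in which a difference of 1 is a doubling. They are not divided by gene length, so levels are compared between groups of livers and not between genes. The depth of each single library cannot be read from such values, so precision here rests on how far mice of one group differ. A gene was called higher or lower at a Benjamini-Hochberg adjusted p (limma, over all 13268 genes tested) under 0.1, the threshold of the study. The members varied about as much as other genes: the median SD within a group and set of livers was 0.13 for members and 0.14 for all tested genes. The smallest was 0.058 for *Gnpat*, and the largest were 0.48 for *Abcd2* and 0.46 for *Hao2*.

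Promoters are shown for the pair of members called in both the diet and the compound comparison, *Hao2* and *Pecr*, and for *Cat*, the only member whose window held the motif searched. Each is read 5′ to 3′ on the strand of its gene, from RefSeq on GRCm38.p6, and spans 250 bases before to 50 bases after the start of the gene. The motif was AGGTCA, any 1 base, AGGTCA, the direct repeat bound by PPARα with RXR, with up to 2 mismatches in its 12 fixed letters on either strand. Capitals mark the match.
Hao2, chr3:98893181-98893480, minus strand: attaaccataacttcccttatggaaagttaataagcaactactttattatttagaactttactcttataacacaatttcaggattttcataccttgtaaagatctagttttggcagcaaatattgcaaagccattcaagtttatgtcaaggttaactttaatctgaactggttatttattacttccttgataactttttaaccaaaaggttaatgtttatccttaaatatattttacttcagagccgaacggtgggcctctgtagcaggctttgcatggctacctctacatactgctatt
Pecr, chr1:72284272-72284571, minus strand: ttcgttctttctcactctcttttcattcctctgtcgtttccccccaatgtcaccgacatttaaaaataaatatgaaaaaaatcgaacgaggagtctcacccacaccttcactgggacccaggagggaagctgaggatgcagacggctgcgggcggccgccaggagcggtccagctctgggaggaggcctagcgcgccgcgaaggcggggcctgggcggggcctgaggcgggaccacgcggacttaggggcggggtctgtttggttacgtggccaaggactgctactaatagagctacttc
Cat, chr2:103485104-103485403, minus strand: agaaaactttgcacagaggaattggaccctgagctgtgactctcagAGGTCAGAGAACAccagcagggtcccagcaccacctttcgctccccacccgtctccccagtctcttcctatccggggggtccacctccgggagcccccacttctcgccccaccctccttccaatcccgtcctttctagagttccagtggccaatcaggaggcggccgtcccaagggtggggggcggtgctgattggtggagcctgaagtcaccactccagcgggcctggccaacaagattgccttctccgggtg

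The *Cat* match began 204 bases before the start, with 2 mismatches. Windows were found for 32 members, and 1 of them (3.13%) held a match, against 1190 of 27025 genes with a window (4.40%). With up to 1 mismatch no member matched, against 174 genes (0.644%). The windows of *Hao2* and *Pecr* held none, which says only that these letters are not in these 300 bases.

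HFD against chow asks what the diet did to these genes. The HFD was accompanied by higher expression of 5 of the 6 oxidase genes tested, of the fatty acyl-CoA importers *Abcd2* and *Abcd3*, of the division factor *Pex11a* and of the enoyl-CoA reductase *Pecr*, and by lower expression of the glyoxylate-removing enzyme *Agxt*. In all, 14 of 38 members were called (36.8%, against 29.2% of all tested genes). Of these, 11 were higher (28.9%, against 14.2%) and 3 lower (7.89%, against 15.0%). The median difference of the members was 0.07, with 28 of 38 above 0, and that of all genes 0.01, with 51.2% above 0. In 7 members the 6 HFD livers did not overlap the 6 chow livers (9.72% of all genes), with 6 higher (4.18%) and 1 lower (5.55%).

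**Figure D1:**
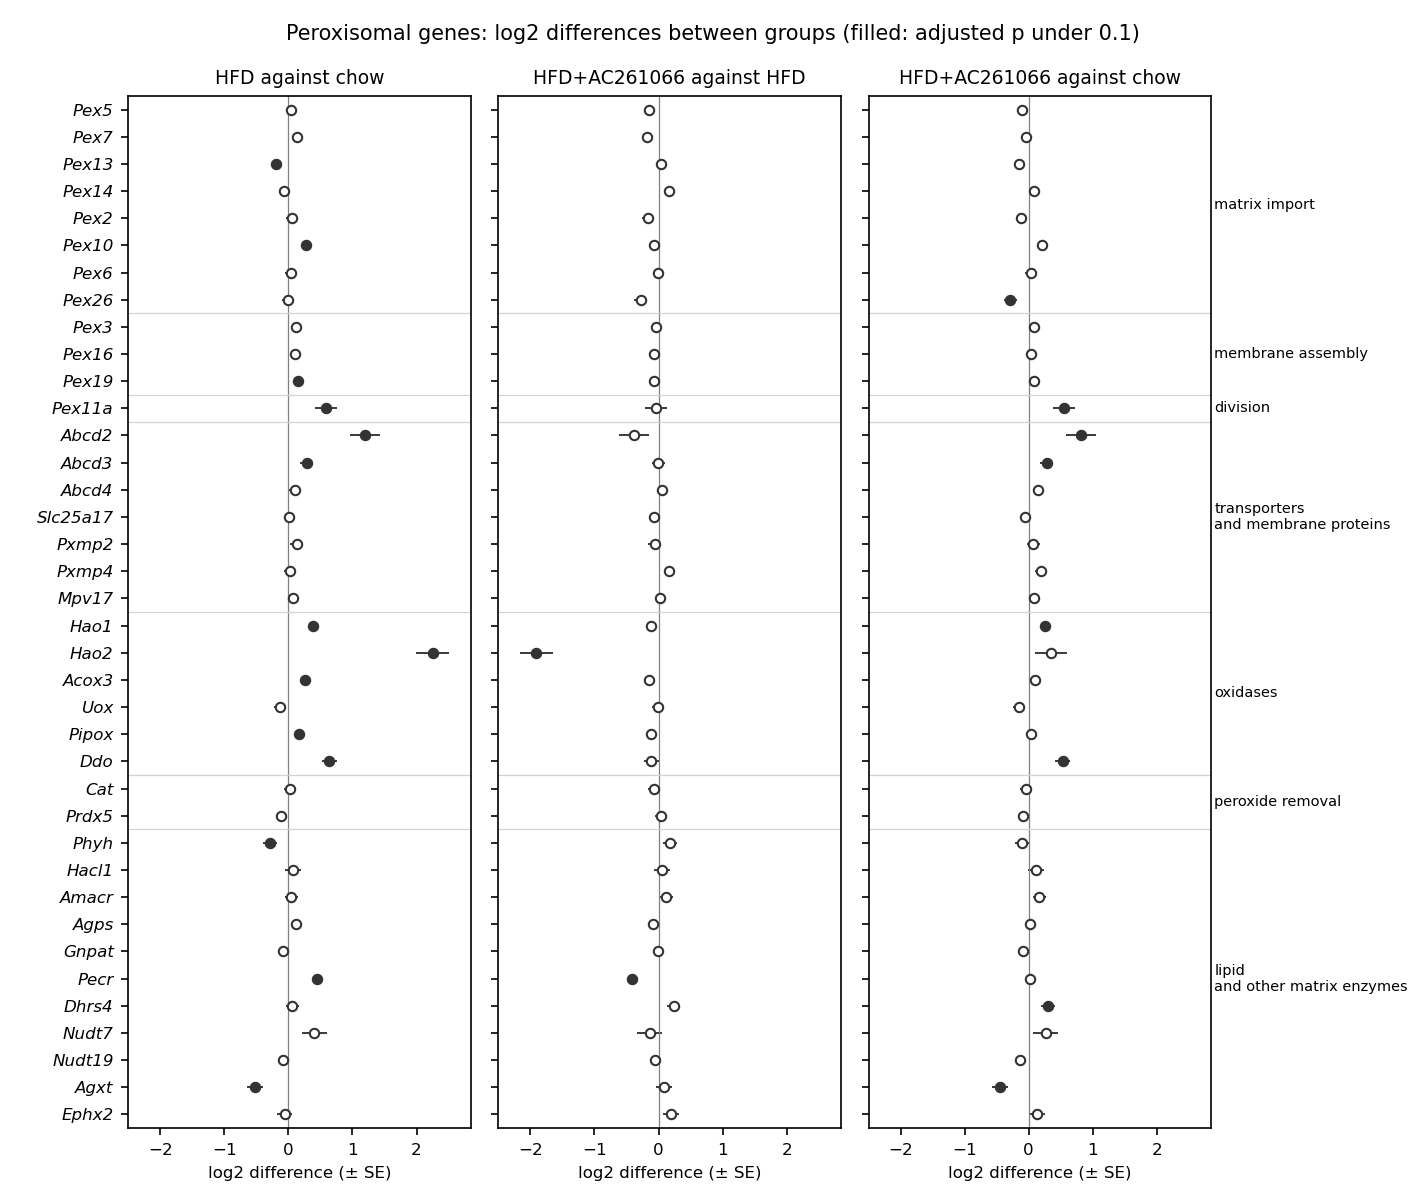
Log2 differences (± SE) of 38 peroxisomal genes, ordered by role, for HFD against chow, HFD+AC261066 against HFD and HFD+AC261066 against chow. Filled points had an adjusted p under 0.1: 14, 2 and 8 members in these comparisons, with *Hao2* far from the others at 2.25 and -1.91 in the first and second.

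Among the oxidases, *Hao2*, which encodes a long-chain 2-hydroxy acid oxidase best known from kidney, changed most. Its lowest, median and highest log2 values were 5.07, 6.15 and 6.85 in HFD livers, against 3.79, 3.87 and 3.94 in chow livers. All HFD livers lay above all chow livers. They were spread over a far wider range, but the transform may draw low values together, so these spreads cannot be compared directly. The difference was 2.25 (SE 0.26, 4.77-fold, adjusted p = 2.6e-05), the 22nd smallest p of the 13268 genes. *Hao2* lies at chr3:98678500-98697162 on the minus strand (NCBIM37, which is mm9), and its values are low, a range in which the authors' transform can make differences too small.

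*Hao1*, the liver glycolate oxidase that makes glyoxylate, had lowest, median and highest values of 12.44, 12.59 and 12.85 in HFD livers, against 12.09, 12.25 and 12.37 in chow livers. The groups did not overlap, and the difference was 0.38 (SE 0.08, 1.30-fold, adjusted p = 0.0028). *Agxt*, the aminotransferase that turns glyoxylate into glycine, moved the other way. It had 11.93, 12.15 and 12.44 in HFD livers, against 12.51, 12.63 and 13.08 in chow livers. Every HFD liver lay below every chow liver, and the difference was -0.52 (SE 0.12, 0.695-fold, adjusted p = 0.00703).

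*Ddo*, the D-aspartate oxidase, was raised without overlap. Its values were 8.92, 9.08 and 9.28 in HFD livers, against 8.23, 8.37 and 8.85 in chow livers, a difference of 0.64 (SE 0.12, adjusted p = 0.0016). *Acox3*, an acyl-CoA oxidase of branched chains, had 9.43, 9.58 and 9.76 in HFD livers, against 9.24, 9.32 and 9.46 in chow livers. The lowest HFD liver lay just below the highest chow liver, and the difference was 0.26 (SE 0.07, adjusted p = 0.015). *Pipox*, the pipecolate and sarcosine oxidase, was higher by 0.16 (adjusted p = 0.0767). *Uox*, the urate oxidase that rodents kept and humans lost, was the oxidase not called. It had 15.32, 15.40 and 15.60 in HFD livers, against 15.33, 15.58 and 15.84 in chow livers, which overlapped (difference -0.14, 95% interval -0.33 to 0.06, adjusted p = 0.314).

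Of the peroxide-removing enzymes, neither was called. *Cat*, catalase, had 16.04, 16.10 and 16.14 in HFD livers, against 15.97, 16.002 and 16.36 in chow livers. The groups overlapped, with a difference of 0.02 (95% interval -0.18 to 0.23, adjusted p = 0.886). *Prdx5*, a peroxiredoxin also found in mitochondria, had a difference of -0.12 (adjusted p = 0.31).

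**Figure D2:**
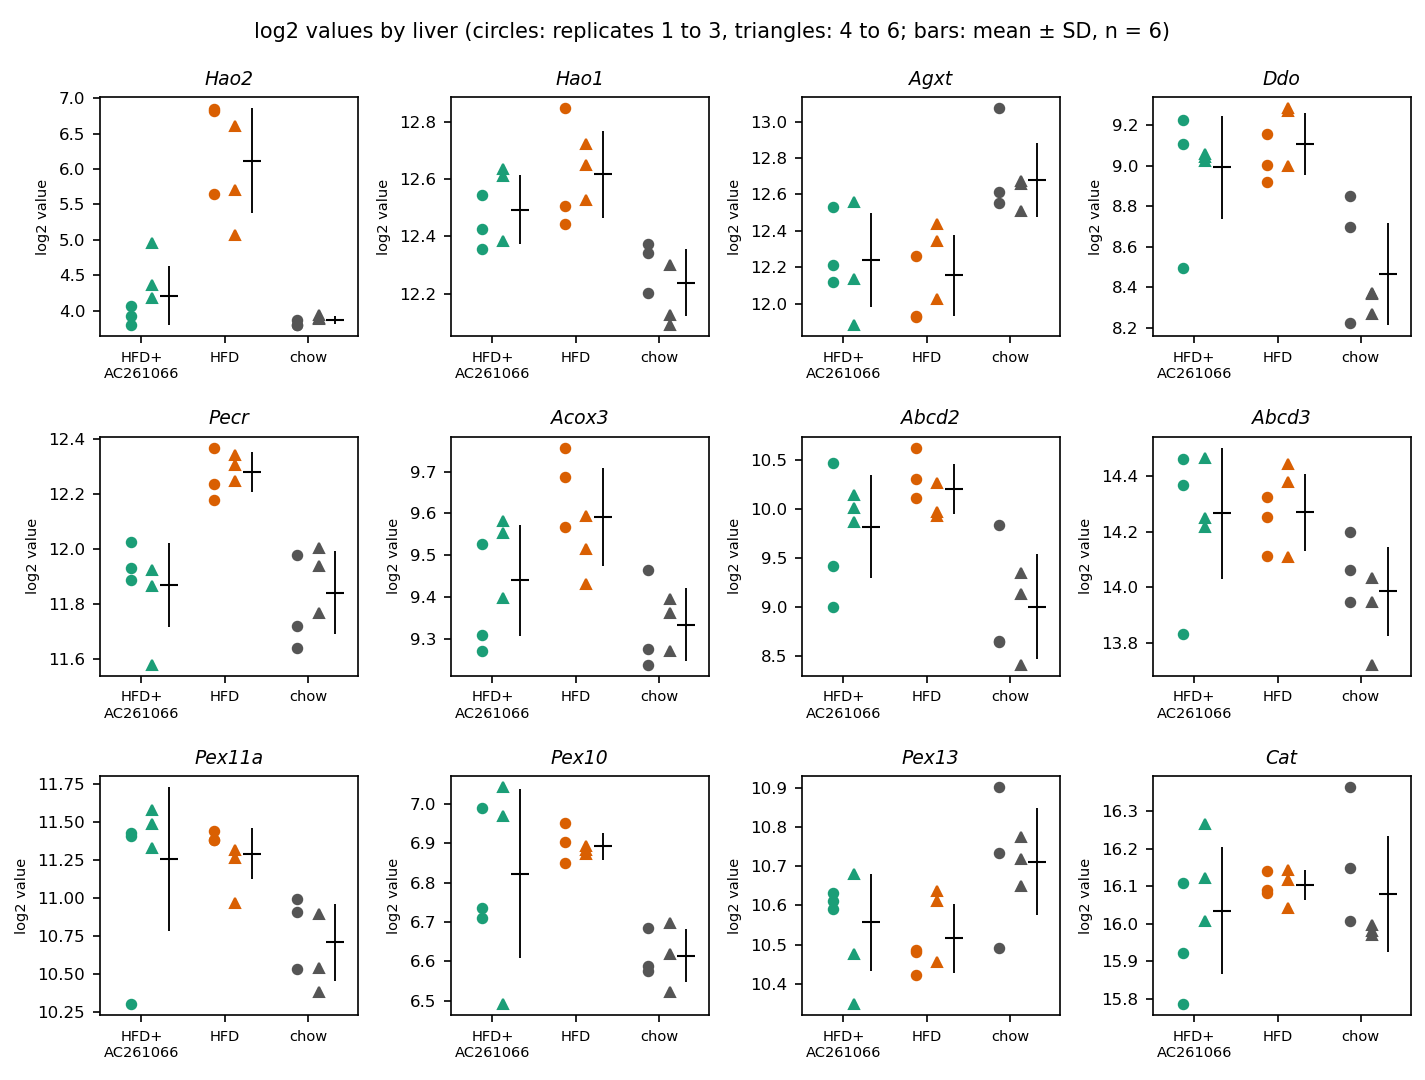
Log2 values of 12 members in each liver of the HFD+AC261066, HFD and chow groups. Circles are replicates 1 to 3, triangles replicates 4 to 6, and bars the mean ± SD (n = 6). In *Hao2* the 6 HFD livers sit between 5.07 and 6.85, above the other 12 livers, and in *Cat* the 3 groups overlap.

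Of the 7 transporters and membrane proteins 2 were higher, against 14.2% of all tested genes. *Abcd2*, a very long-chain acyl-CoA importer, had 9.92, 10.19 and 10.62 in HFD livers, against 8.41, 8.89 and 9.83 in chow livers. The groups did not overlap, although a single chow liver, replicate 3, came close. The difference was 1.20 (SE 0.24, 2.29-fold, adjusted p = 0.00216). *Abcd3*, which imports branched and dicarboxylic acyl-CoAs, had 14.11, 14.29 and 14.44 in HFD livers, against 13.72, 13.99 and 14.20 in chow livers. These overlapped, and the difference was 0.28 (SE 0.11, adjusted p = 0.0624). The call of *Abcd3* was lost in 6 of 29 alternatives, among them replicates 1 to 3 alone (0.16, adjusted p = 0.579). The other 5 transporters and membrane proteins were not called, with differences of 0.01 to 0.13. They were *Slc25a17*, a carrier of CoA and nucleotides, the channel protein *Pxmp2*, *Pxmp4*, *Abcd4*, now known as a lysosomal cobalamin transporter, and *Mpv17*, now placed in the inner mitochondrial membrane.

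*Pecr*, which reduces trans-2-enoyl-CoA in chain elongation, had 12.18, 12.28 and 12.37 in HFD livers, against 11.64, 11.85 and 12.002 in chow livers. No value of one group fell within the other, and the difference was 0.44 (SE 0.08, 1.36-fold, adjusted p = 0.000873). *Pecr* lies at chr1:72305741-72330888 on the minus strand (NCBIM37) and overlaps *D230017M19Rik* on the other strand. Whether reads were counted by strand is not given in the sources used here, so reads of such pairs cannot be told apart. Among called members the same holds for *Abcd3*, *Acox3* and *Pex13*, which overlap *Gm17676*, *4931431C16Rik* and *Pus10*. Some members not called here also overlap other genes, such as *Pex3* with *Adat2* on the other strand and *Mpv17* with *Gtf3c2* on the same strand.

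Of the 11 lipid and other matrix enzymes, *Pecr* was higher, *Agxt* and *Phyh* were lower and 8 were not called. Over all tested genes 14.2% were higher and 15.0% lower. *Phyh*, the phytanoyl-CoA hydroxylase that opens alpha-oxidation, had a difference of -0.28 (adjusted p = 0.0671), and its call, like that of *Pipox*, was lost in 11 of 29 other ways of processing. *Hacl1*, the lyase of the same pathway, had 0.07, and *Amacr*, the racemase that prepares its products for beta-oxidation, 0.05. *Agps* and *Gnpat*, which start ether lipid synthesis, had 0.12 and -0.09. *Nudt7* and *Nudt19*, which hydrolyse CoA, had 0.40 and -0.08, *Ephx2*, the soluble epoxide hydrolase, -0.06, and *Dhrs4*, a reductase of retinal and other carbonyls, 0.06. The last 2 values join opposite directions in replicates 1 to 3 and 4 to 6: -0.44 and 0.32 for *Ephx2*, -0.18 and 0.30 for *Dhrs4*. Neither passed the limma test of a difference between the sets (interaction adjusted p = 0.151 and 0.236). The *Nudt7* estimate carried an SE of 0.20 (adjusted p = 0.15), wider than the 0.07 of *Acox3*, a called gene with a smaller difference.

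Of the 12 peroxins 8 were not called. Over all tested genes 29.2% were called, so peroxins were called about as often as other genes. *Pex11a*, which elongates and divides peroxisomes, was the peroxin with the largest difference. It had 10.97, 11.35 and 11.44 in HFD livers, against 10.38, 10.72 and 10.99 in chow livers. The groups met at a single pair of livers, and the difference was 0.59 (SE 0.17, 1.5-fold, adjusted p = 0.0225). *Pex10*, a RING ubiquitin ligase that recycles the import receptor, had 6.85, 6.89 and 6.95 in HFD livers, against 6.52, 6.60 and 6.70 in chow livers. These did not overlap (difference 0.28, SE 0.08, adjusted p = 0.0257).

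*Pex13*, part of the docking complex, had 10.42, 10.48 and 10.64 in HFD livers, against 10.49, 10.73 and 10.90 in chow livers. It was lower by test but overlapped (difference -0.20, SE 0.07, adjusted p = 0.0551). *Pex19*, the chaperone of membrane proteins, was higher by 0.15 (adjusted p = 0.059), and its partners *Pex3* and *Pex16* were not called at 0.12 and 0.10. The calls of *Pex13* and *Pex19* were each lost in 8 of 29 alternatives. Those of *Pex10*, *Pex13* and *Pex19* were lost in replicates 1 to 3 alone and in replicates 4 to 6 alone. The import receptors *Pex5* and *Pex7* had differences of 0.04 and 0.13, the docking partner *Pex14* -0.07, the ligase *Pex2* 0.05, the ATPase *Pex6* 0.03 and its membrane anchor *Pex26* -0.01.

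**Figure D3:**
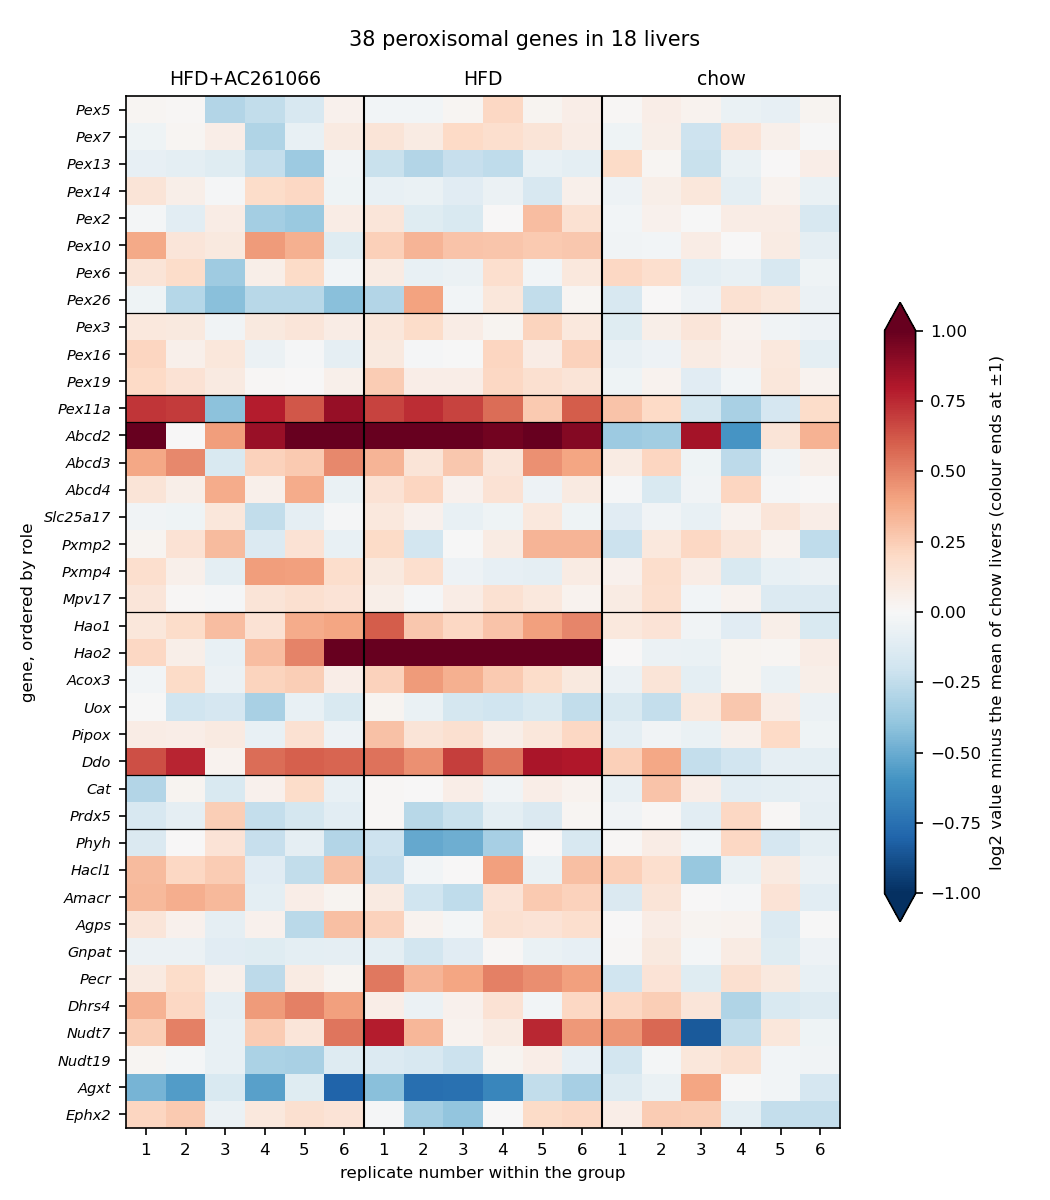
Log2 values of 38 members in each of the 18 livers, minus the mean of the chow livers for that gene, with colour ending at ±1. Columns are livers by group and replicate, and rows are genes by role. *Hao2*, *Abcd2*, *Ddo* and *Pex11a* stand out in HFD livers, *Hao2* lies nearer 0 in HFD+AC261066 livers than in HFD livers, and HFD+AC261066 replicate 3 stands apart in *Pex11a* and *Ddo*.

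HFD+AC261066 against HFD asks what the compound did on the same diet, and it shares the HFD livers with the comparison above. *Hao2* and *Pecr* were lower in HFD+AC261066 livers, and no other member was called. These 2 of 38 members (5.26%) stand against 2.80% of all tested genes, and both were lower (1.54% of all genes). No member was called higher (1.27% of all genes). At an unadjusted p under 0.05 there were 8 members (15.7% of all genes), of which 2, *Pex14* and *Dhrs4*, were higher (7.92%). The median difference was -0.06, with 12 of 38 above 0, against 0.00 and 50.0% over all genes.

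*Hao2* had 3.79, 4.12 and 4.95 in HFD+AC261066 livers, against 5.07, 6.15 and 6.85 in HFD livers. The groups did not overlap, though the gap between the nearest livers was small. The difference was -1.91 (SE 0.26, 0.267-fold, adjusted p = 0.00173), the 4th smallest p of all tested genes. On the linear scale, levels were 19.2 ± 6.19 in HFD+AC261066 livers, 77.0 ± 35.8 in HFD livers and 14.6 ± 0.56 in chow livers (2 raised to the log2 value, SD, n = 6). The chow values lie low, where the transform may draw values together, so their small SD does not show how alike these livers were.

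*Pecr* had 11.58, 11.91 and 12.02 in HFD+AC261066 livers, against 12.18, 12.28 and 12.37 in HFD livers. Every treated liver was below every HFD liver, and the difference was -0.41 (SE 0.08, 0.751-fold, adjusted p = 0.0148), the 32nd smallest p. The call was lost in replicates 1 to 3 taken alone (adjusted p = 0.279). *Hao2* and *Pecr* were also the only members whose groups did not overlap here (1.74% of all genes, 0.950% lower and 0.791% higher).

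The other members called under the HFD were not called under the compound. *Hao1* had 12.36, 12.49 and 12.64 in HFD+AC261066 livers and overlapped the HFD livers (difference -0.12, 95% interval -0.29 to 0.04, adjusted p = 0.472). *Abcd2* had 9.003, 9.93 and 10.46, with a difference of -0.38 and an interval of -0.88 to 0.12 (adjusted p = 0.465). *Ddo* had 8.50, 9.05 and 9.22, and the interval of its difference was -0.37 to 0.14 (adjusted p = 0.71).

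*Agxt* had 11.88, 12.17 and 12.56 in HFD+AC261066 livers (difference 0.08, 95% interval -0.18 to 0.34, adjusted p = 0.794). *Pex11a* had 10.30, 11.42 and 11.58 (difference -0.04, 95% interval -0.40 to 0.32, adjusted p = 0.941). In each of these the treated livers overlapped the HFD livers, and the intervals of *Abcd2* and *Pex11a* were the widest of these genes. *Cat* had 15.79, 16.06 and 16.26 (difference -0.07, 95% interval -0.27 to 0.14, adjusted p = 0.79).

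*Uox* had 15.24, 15.41 and 15.57 (difference -0.02, adjusted p = 0.956), *Abcd3* 13.83, 14.31 and 14.47 (0.00, adjusted p = 0.993) and *Acox3* 9.27, 9.46 and 9.58 (-0.15, adjusted p = 0.301). *Pex10* had 6.49, 6.85 and 7.04 (-0.07, adjusted p = 0.742) and *Pex13* 10.35, 10.60 and 10.68 (0.04, adjusted p = 0.828). All of these overlapped the HFD livers. Among members not called in either comparison with HFD livers, *Pex26* had the smallest p here (-0.28, adjusted p = 0.175), followed by *Pex14* (0.16, adjusted p = 0.184) and *Pex7* (-0.17, adjusted p = 0.219).

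HFD+AC261066 against chow shows where treated livers stood relative to the chow diet, and it shares livers with both comparisons above. Treated livers had higher *Ddo*, *Abcd2*, *Hao1*, *Pex11a*, *Dhrs4* and *Abcd3* and lower *Agxt* and *Pex26*. That made 8 of 38 members called (21.1%, against 16.7% of all genes), 6 higher (15.8%, against 8.22%) and 2 lower (5.26%, against 8.45%). The groups of no member were free of overlap (3.69% of all genes). The median difference was 0.07, with 25 of 38 above 0, against 0.00 and 50.7% over all genes.

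The differences were 0.53 for *Ddo* (adjusted p = 0.0143), 0.81 for *Abcd2* (adjusted p = 0.0395), 0.25 for *Hao1* (adjusted p = 0.0471) and -0.44 for *Agxt* (adjusted p = 0.034). *Pex11a* had 0.55 (adjusted p = 0.0515), *Dhrs4* 0.30 (adjusted p = 0.073), *Pex26* -0.29 (adjusted p = 0.0741) and *Abcd3* 0.28 (adjusted p = 0.0971). *Hao2* and *Pecr* were not called, at 0.35 (95% interval -0.19 to 0.89, adjusted p = 0.403) and 0.03 (95% interval -0.13 to 0.19, adjusted p = 0.851). For *Pecr* the interval leaves out a difference from chow as large as that of HFD livers, which was 0.44. These calls were less stable than those of the other comparisons: replicates 1 to 3 alone gave 0 called members and replicates 4 to 6 alone gave 12, leaving out chow replicate 4 gave 3, and the call of *Abcd3* was kept in 9 of 29 alternatives.

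Within the 2 sets of livers, the 14 members called in HFD against chow had the same direction in replicates 1 to 3 and in replicates 4 to 6. With 3 livers a group, only *Hao2* and *Pecr* kept this call in each set alone. Among the calls lost in replicates 1 to 3 were *Hao1* (adjusted p = 0.168), *Ddo* (0.237), *Abcd2* (0.104) and *Pex11a* (0.214). Among those lost in replicates 4 to 6 were *Agxt* (adjusted p = 0.151) and *Acox3* (0.187). *Hao2* had 2.62 and 1.89 in these sets, *Abcd2* 1.31 and 1.09, *Pecr* 0.48 and 0.40, *Pex11a* 0.59 and 0.58 and *Agxt* -0.71 and -0.34. Against HFD livers, HFD+AC261066 livers differed in *Hao2* by -2.51 and -1.30 and in *Pecr* by -0.31 and -0.51. Both genes were lower in either set, and no member passed the test of a difference between sets in HFD against chow (8 genes of all tested did).

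The sets were less alike in HFD+AC261066 against chow. The interaction passed the threshold for 566 genes, among them *Dhrs4*, with -0.04 and 0.64 (adjusted p = 0.0252), and *Pxmp4*, with -0.06 and 0.43 (adjusted p = 0.0609). Against HFD livers it passed for 66 genes, among them *Amacr*, the racemase, with 0.46 and -0.21 (adjusted p = 0.0654). The call of *Dhrs4* against chow therefore rests on replicates 4 to 6.

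**Figure D4:**
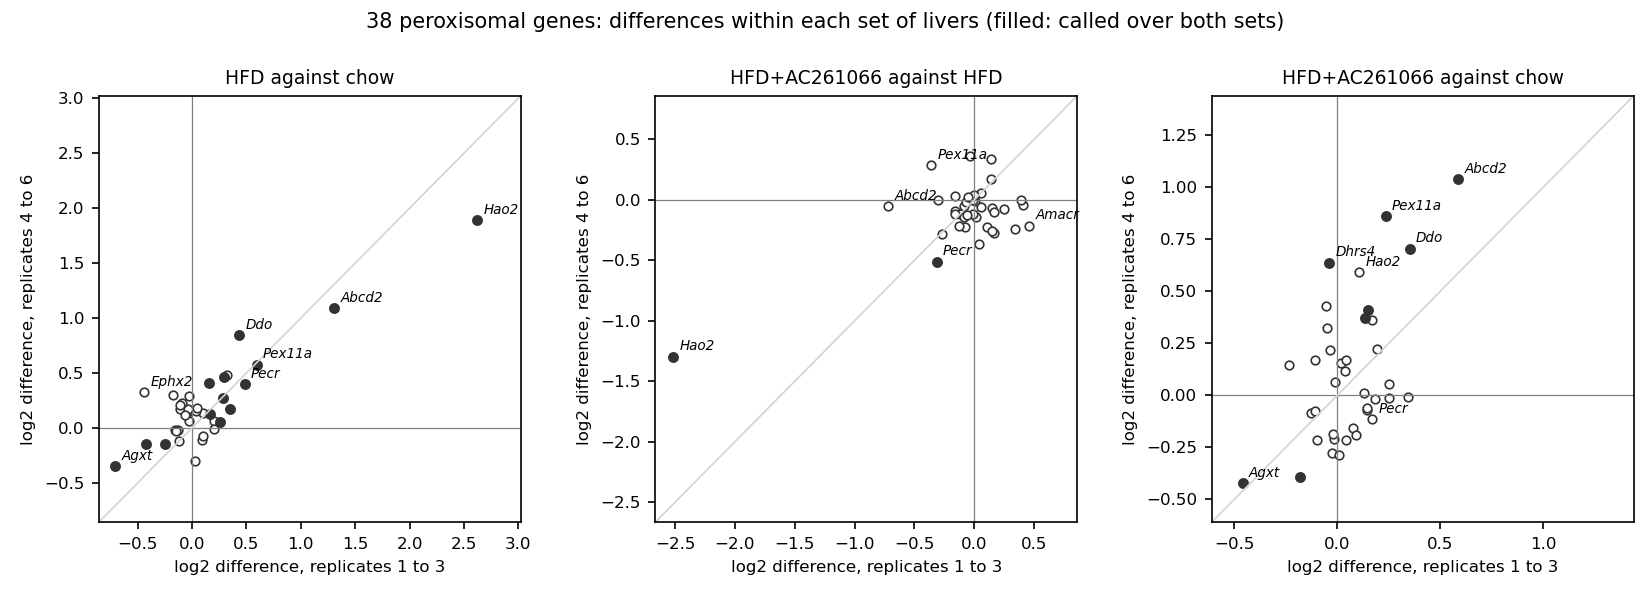
Log2 differences of 38 members in replicates 1 to 3 (horizontal axis) and in replicates 4 to 6 (vertical axis), for each comparison. Filled points were called over both sets, and the grey diagonal marks equal differences. *Hao2* lies at 2.62 and 1.89 for HFD against chow and at -2.51 and -1.30 for HFD+AC261066 against HFD.

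A single treated liver, HFD+AC261066 replicate 3, held the lowest value of its group in 13 of 38 members and the highest in 5, and an end of the range in 44.1% of all tested genes. Chow replicate 3 held an end of its range in 14 members and 46.5% of all genes, and HFD replicate 2 in 18 members and 41.1%. HFD+AC261066 replicate 3 had the lowest *Pex11a* (10.30), *Ddo* (8.50), *Abcd3* (13.83) and *Dhrs4* (11.96) of the treated livers. Without this liver, 9 members were called against chow and 15 in HFD against chow, and 2 between HFD+AC261066 and HFD, so the calls against HFD livers did not depend on it. Without chow replicate 3 the counts were 8, 13 and 2 in the same order, and without HFD replicate 2 they were 7, 12 and 2.

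Peroxisomal genes outside the 39 were taken from a list of 46, of which 43 were tested. In HFD against chow 14 were higher and 1 lower (14.2% and 15.0% of all tested genes), with a median of 0.12. The Lon protease of the matrix *Lonp2* had 0.49 (adjusted p = 0.000765), the ether lipid reductase *Dhrs7b* 0.42 (adjusted p = 0.00111) and the glutathione transferase *Gstk1* 0.34 (adjusted p = 0.00234). Between HFD+AC261066 and HFD livers none was higher and 2 were lower (1.27% and 1.54% of all genes), *Gstk1* (-0.25, adjusted p = 0.0787) and the urate-making *Xdh* (-0.24, adjusted p = 0.0804), the last named outside the rule for such names, after its value was seen, with a median of 0.00. In HFD+AC261066 against chow 7 were higher and 1 lower (8.22% and 8.45% of all genes).

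Of 33 known targets and partners of PPARα tested, 8 were higher, 6 lower and 19 not called in HFD against chow, with a median of 0.12. The shares over all tested genes given above apply to this list as well. The omega-hydroxylase genes *Cyp4a31*, *Cyp4a10* and *Cyp4a14* fell by 1.52, 0.92 and 0.89 (adjusted p = 1.81e-05, 0.000102 and 0.00294), while *Vnn1*, a pantetheinase gene, was higher by 1.0 (adjusted p = 0.0106). Relative to HFD livers, HFD+AC261066 livers had 3 higher, *Cyp4a31* by 1.38, *Cyp4a10* by 0.64 and *Cyp4a14* by 0.81 (adjusted p = 0.000602, 0.0154 and 0.0377), and none was lower. Against chow livers HFD+AC261066 livers had 7 higher and 1 lower. These *Cyp4a* genes moved opposite to *Hao2* and *Pecr* in either comparison. The list shares genes with the list of other peroxisomal genes, among them *Ehhadh* and *Acaa1b*.

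The samples are labelled as liver, although their labels also carry a growth protocol for neural stem cells. All 8 hepatocyte markers had values, with summed levels of 2320988 to 3194296 in HFD+AC261066 livers, 2479044 to 2930795 in HFD livers and 2603933 to 3545508 in chow livers, and 5 of them were lower in HFD against chow. Of 12 Kupffer cell and macrophage markers 5 were higher in HFD against chow, with summed levels of 15320 to 24950 in HFD+AC261066 livers, 15708 to 20034 in HFD livers and 13355 to 16455 in chow livers. Of 10 stellate cell and fibroblast markers 4 were higher in HFD against chow and 2, *Col1a1* and *Col3a1*, lower in HFD+AC261066 against HFD, with summed levels of 5910 to 7930 in HFD+AC261066 livers, 6767 to 12162 in HFD livers and 5428 to 9531 in chow livers. Of 7 endothelial markers 2 were higher in HFD+AC261066 livers than in HFD livers, and neither cholangiocyte nor lymphocyte markers had a call in either of these comparisons. *Alas2*, the 1 erythroid marker tested, was higher in HFD livers than in chow livers, and 3 globin genes were listed at 0. *Cfd*, the 1 adipocyte marker tested of 4, had differences of 2.31 between HFD and chow livers and -1.599 between HFD+AC261066 and HFD livers. Both passed the threshold and had the same signs as those of *Hao2*. *Lep* was listed at 0, and *Adipoq* and *Plin1* had values below the minimum for testing. Summed levels of the 4 adipocyte markers were 20.2 to 66.9 in HFD+AC261066 livers, 65.1 to 147.9 in HFD livers and 16.9 to 29.4 in chow livers. Over all tested genes, 14.2% were higher and 15.0% lower in HFD against chow. In HFD+AC261066 against HFD, 1.27% of all tested genes were higher and 1.54% lower. The part of other cell types in the differences of the peroxisomal genes was not tested.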

How the data were processed

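Liver RNA of 18 mice was sequenced and the authors deposited log2 values per gene and library. The submitters' notes and the study's methods name bcl2fastq 2.17, cutadapt, TopHat2 2.0.11 against mm9, HTSeq 0.6.1, DESeq2 1.6.3 and removeBatchEffect of limma 3.22.7. The transform is not given in the sources used here. Low values look drawn in toward the mean of their gene, like those of a regularized logarithm, but this was not measured. Differences of low genes can therefore be too small, and the depth of single libraries cannot be read from such values. The study states a nominal number of read pairs per sample, which was not used here. Of 20512 genes, 3620 were 0 in every library.

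Groups and replicate numbers came from the labels. Means of replicates 1 to 3 and 4 to 6 were equal to within 4.4e-14. The 13268 genes with a mean of at least 2 were fitted with limma 3.58.1 (R 4.3.3), with 3 groups, a variance trend and a term for the 2 sets (14 residual and 4.9 prior degrees of freedom), Benjamini-Hochberg over all tested genes, threshold 0.1. Within-set differences used 3 livers a group. Alternatives were no set term, each set alone, a replicate block, other minimums, quantile normalization, equal medians, no trend, only 2 groups, leaving out each library, and a call threshold of 0.05.

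Values were given for up to 10 called members with the smallest p in the diet comparison (HFD, chow) and in the compound comparison (HFD+AC261066, HFD), and for *Cat*, *Pex11a*, *Abcd2*, *Abcd3*, *Hao1*, *Hao2*, *Acox3*, *Agxt* and *Uox*. From the 2 other gene lists, up to 6 and up to 4 genes with the smallest p were named. Members and lists were chosen with earlier results of these data known. Protein sequences were not used here. Some genes of these lists are not reported here by name. Figures were drawn with matplotlib 3.10.9 in Python 3.11.15.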

Additional observations from a re-analysis of the deposited data

Results flagged for a closer look

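Among 39 groups of 6 livers of the members given in full, 4 held a liver whose gap to the next, as a share of the group's range, was above Dixon's critical value for 6 values. Chance alone marks about 1 in 20 groups. *Pex11a* in HFD+AC261066 livers had a share of 0.804, from replicate 3 at 10.30 with the next liver at 11.33. *Ddo* in HFD+AC261066 livers had a share of 0.726, from the same replicate at 8.50 with the next at 9.02. *Agxt* in chow livers had a share of 0.714, from replicate 3 at 13.08 with the next at 12.67. *Pecr* in HFD+AC261066 livers had a share of 0.643, from replicate 4 at 11.58 with the next at 11.86.

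The difference itself differed between replicates 1 to 3 and 4 to 6 for 3 results (limma interaction, adjusted over all tested genes). They were *Amacr* in HFD+AC261066 against HFD (adjusted p = 0.0654), *Pxmp4* in HFD+AC261066 against chow (adjusted p = 0.0609) and *Dhrs4* in HFD+AC261066 against chow (adjusted p = 0.0252).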

How the results depend on the processing

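In HFD against chow 14 members were called. Replicates 1 to 3 alone gave 5, replicates 4 to 6 alone gave 10 and a threshold of 0.05 gave 9, and leaving out 1 library gave 11 to 15. Between HFD+AC261066 and HFD livers 2 were called. Replicates 1 to 3 alone gave 1, replicates 4 to 6 alone gave 4, and a minimum of 5, which leaves *Hao2* untested, gave 1, while leaving out 1 library gave 2 to 3. In HFD+AC261066 against chow 8 were called. Replicates 1 to 3 alone gave 0, with 123 genes called in all, replicates 4 to 6 alone gave 12, which held all 8, only the 2 groups compared gave 5 and a threshold of 0.05 gave 4. Leaving out 1 library gave 3 to 9 there: 3 without chow replicate 4, 4 without chow replicate 6 or HFD+AC261066 replicate 4, and 5 without chow replicate 5 or HFD+AC261066 replicates 1 or 5. *Dhrs4* in HFD+AC261066 against chow turned to -0.039 in replicates 1 to 3 alone, and the cause was not tested. No other called member changed direction. *Hao2* kept both calls in all 28 alternatives that tested it and *Pecr* its call in HFD against chow in all 29. In HFD+AC261066 against HFD, *Pecr* lost its call in replicates 1 to 3 alone (adjusted p = 0.279) and kept it in the other 28. In HFD against chow *Phyh* and *Pipox* kept their calls in 18 of 29, and in HFD+AC261066 against chow *Abcd3* in 9, *Pex26* in 17 and *Dhrs4* in 18.

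Over 18 pairs of same-numbered livers of different groups, r of their deviations ran from -0.17 to 0.21 across genes, with 5 over 0.1. Pairs with different numbers were not compared, so this cannot show whether same-numbered livers deviated together. With the replicate number as a block 13, 2 and 7 members were called in the same order of comparisons, 12 of the 13 being among the 14.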
